A study of Homo sapiens with 84 samples.

Results

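The clustered histone genes described here are the protein-coding genes whose GENCODE 29 symbol starts with HIST1H, HIST2H, HIST3H or HIST4H. They number 70 of the 57964 rows of the count table. A gene's place among them rests on its name and gene type. The set itself was chosen with earlier results of these data known. The table covers 84 libraries from NCI-H1373 and NCI-H647, which are both established lines of non-small cell lung cancer. Cells of each line received the vehicle DMSO, RBN-2397 (10, 30 and 300 nM) or RBN012337 (3, 10 and 100 nM), for 6 or 24 h, with 3 replicates in each of the 28 groups. Both compounds are inhibitors of PARP7, a mono-ADP-ribosyltransferase, and some labels write the first of them as RBN012397. Cells were grown in multi-well dishes as single cell lines, and no other agent or genetic change is given for any group.

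Histones H2A, H2B, H3 and H4 form the protein core of the nucleosome, and H1, the linker histone, binds the DNA where it enters and leaves that core. The clustered genes supply the bulk of new histones when DNA is copied, and their transcripts are best known for ending in a short stem-loop, bound by the protein SLBP, in place of a poly(A) tail. Some of the same genes also give transcripts that run on past the stem-loop and end in a poly(A) tail, a form known from cells that have left the cell cycle or differentiated. The libraries are of the 3' digital gene expression type, a method that counts transcript ends and in its published form primes on poly(A) tails. How much of a histone transcript without a tail such a library holds was not tested, so every level below is that of the transcripts the method captured.

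The stem-loop was looked for in the GENCODE 29 transcript models as 16 bases made of a stem of 6 bases that starts with GG, a loop of 4 bases that starts with TT, and the matching second arm. It was found in models of 29 of the 70 genes, and in 154 of 19922 protein-coding genes (0.773%) in all. In all 8 H4 genes that have it the first arm reads GGCCCT, and in the 21 other genes GGCTCT. It is printed for 8 genes that were lower after treatment in a comparison below, because most genes called lower there carry it. Both arms of the stem are in capitals, the loop and 5 bases on either side are in lower case, and all are read 5' to 3' on the gene's strand from the GENCODE 29 transcripts on hg38.
HIST1H2AC, chr6:26124664-26124689, plus strand: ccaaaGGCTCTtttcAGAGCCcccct
HIST1H2BC, chr6:26123467-26123492, minus strand: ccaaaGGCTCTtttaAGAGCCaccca
HIST1H2BD, chr6:26158582-26158607, plus strand: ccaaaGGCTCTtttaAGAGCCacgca
HIST1H2AE, chr6:26217412-26217437, plus strand: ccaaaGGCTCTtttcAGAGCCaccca
HIST1H2BG, chr6:26216213-26216238, minus strand: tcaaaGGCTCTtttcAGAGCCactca
HIST1H4H, chr6:26285126-26285151, minus strand: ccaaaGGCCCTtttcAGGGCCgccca
HIST2H2AA4, chr1:149851569-149851594, plus strand: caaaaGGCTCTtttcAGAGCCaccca
HIST2H4B, chr1:149860764-149860789, minus strand: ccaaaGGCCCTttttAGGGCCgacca

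These stem-loops lie in the 3' untranslated part of the transcript model, each within 1 exon. The stem itself starts 29 to 67 bases after the stop codon in these 8 genes. The annotated transcript runs on beyond the stem-loop by 35 bases in HIST2H2AA4 and by 1655 bases in HIST1H4H. Of the 70 gene models, 33 hold coding sequence only and so end at the stop codon, 29 hold a stem-loop, and 8 hold some non-coding sequence with no stem-loop. A model that ends at the stop codon cannot hold the stem-loop. For those 33 genes its absence from the model does not mean absence from the transcript. The model of HIST1H4C, the gene with the highest level, is one of those 8.

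Of the 70 genes, 66 had at least 1 count in the 84 libraries and 52 passed 1 CPM (counts scaled to a library total of 1e6) in at least 3 libraries. Those 52 were 41 of 55 HIST1 genes on chromosome 6, 8 of 11 HIST2 genes on chromosome 1, 2 of 3 HIST3 genes on chromosome 1 and the 1 HIST4 gene on chromosome 12. By protein they were 5 of 6 H1, 15 of 17 H2A, 13 of 18 H2B, 9 of 14 H3 and 10 of 15 H4 genes. HIST1H4B, HIST1H4F and HIST2H2AA3 were just inside the threshold with 3 libraries each. HIST1H2BM, with 2 libraries, and HIST1H2BA and HIST1H2BB, with 1 each, were just outside it. HIST1H3D, HIST1H4G, HIST1H4K and HIST2H3PS2 were at 0 in every library. The remaining 11 genes under the threshold were HIST1H1T, HIST1H2AA, HIST1H2AD, HIST1H2BI, HIST1H2BO, HIST1H3A, HIST1H4I, HIST1H4L, HIST2H3D, HIST2H4A and HIST3H3, with 1 to 59 counts each over all libraries. Among these, HIST1H2BO, HIST1H3A and HIST2H4A also passed 1 CPM in 1 library each. A lower threshold of 0.5 CPM would have kept 59 genes and one of 2 CPM 44.

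Library totals ran from 630654 to 6938453 counts, with a median of 2246547 in NCI-H1373 and 3877265 in NCI-H647. In NCI-H1373 at 24 h the DMSO libraries differed in depth, with 3610536, 1622874 and 630654 counts in replicates 1, 2 and 3. Depth went with the replicate number in that line, not with DMSO alone. Replicate 1 was the deepest of every group at 24 h, and replicate 3 the shallowest of every group at 6 h. The 6 epithelial markers summed to between 2365 and 8688 CPM in NCI-H1373 and between 380 and 3036 CPM in NCI-H647. Markers of leukocytes summed to at most 17.7 CPM, of fibroblasts to at most 21.6 CPM and of endothelial cells to at most 9.52 CPM, and CD3E, which marks T cells, was at 0 in both lines.

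The levels of the clustered histone genes were dominated by 1 gene of the H4 family and by the linker histones. HIST1H4C averaged 1501 CPM over the 42 libraries of NCI-H1373 and 1051 CPM over those of NCI-H647. H4 genes made up 58.3% of the summed CPM of the clustered histone genes in NCI-H1373 and 53.2% in NCI-H647, followed by H1 genes (22.9% and 27.2%) and H2A genes (16.2% and 15.6%). H2B genes took 2.02% and 2.96%, and H3 genes 0.570% and 1.04%. The family shares therefore had the same order in both lines, and they describe captured transcripts, not histone proteins.

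After HIST1H4C, the 7 genes with the highest means over all 84 libraries were 4 H1 genes and 3 H2A genes. The linker histone genes HIST1H1E, HIST1H1C, HIST1H1D and HIST1H1A averaged 230, 146, 89.0 and 66.7 CPM. The H2A genes HIST1H2AM, HIST2H2AA4 and HIST2H2AC averaged 127, 76.6 and 65.9 CPM. Divided by the exon length of the model, HIST1H4C stayed first at 2933 CPM per kilobase, against 324 for HIST1H2AM and 305 for HIST1H1E. The order is approximate for these lengths, since libraries of this type count ends and models of coding sequence only are short.

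**Figure D1:**
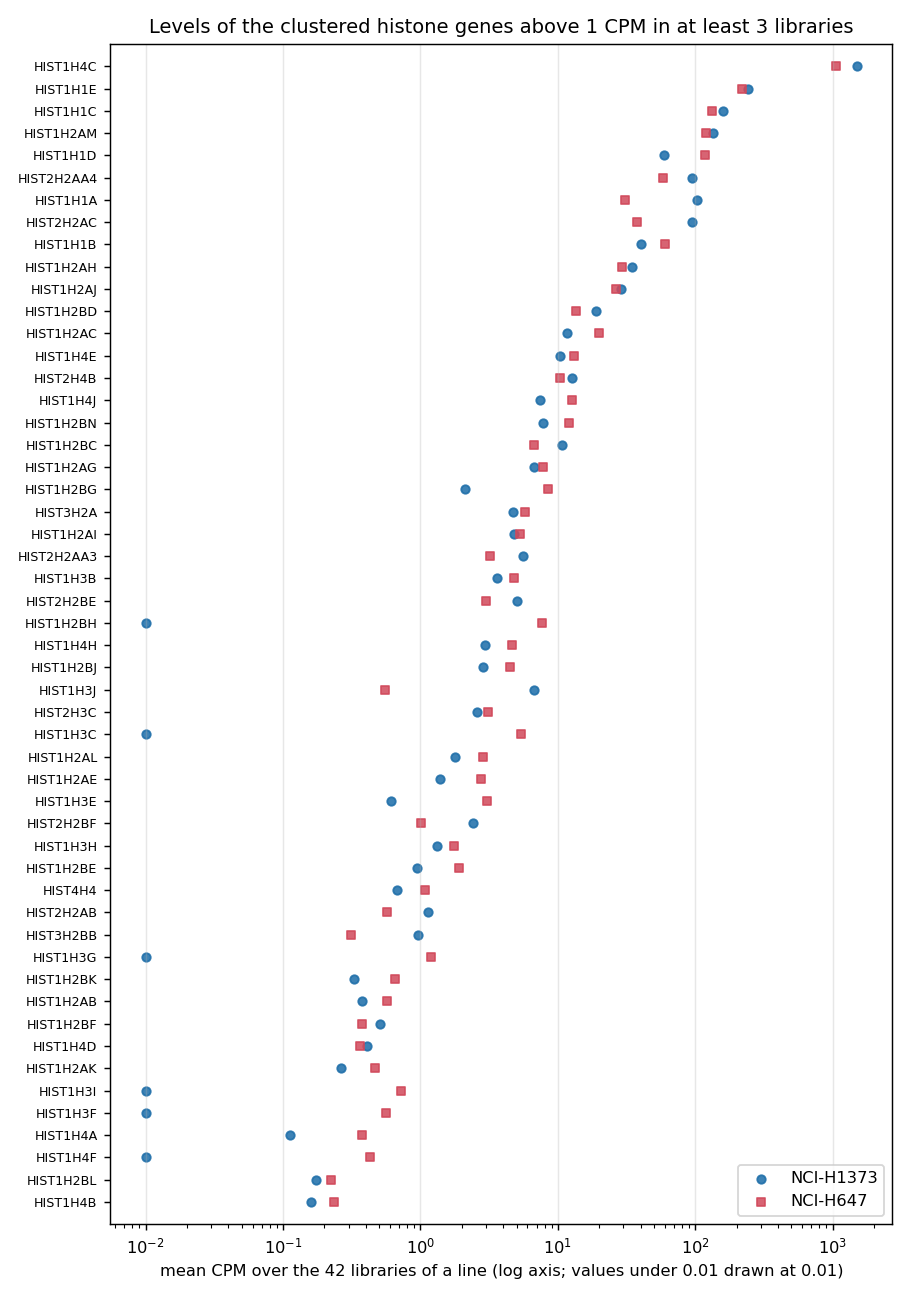
Mean level of each of the 52 described genes, in CPM on a log axis, over the 42 libraries of NCI-H1373 (blue circles) and of NCI-H647 (red squares), with values under 0.01 CPM drawn at 0.01. HIST1H4C lies at 1501 and 1051 CPM, and 6 genes of chromosome 6 are drawn at 0.01 in NCI-H1373 and not in NCI-H647.

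The sum over all 70 genes ranged from 1206 to 5452 CPM per library in NCI-H1373, with a median of 2586, and from 1020 to 3484 CPM in NCI-H647, with a median of 1949. HIST1H4C set much of that range. In NCI-H1373 its highest group mean was 2747 ± 894 CPM (SD, n = 3) in DMSO at 6 h and its lowest 688 ± 216 CPM in RBN012337 at 100 nM for 24 h. In NCI-H647 the group means lay between 791 ± 470 CPM in RBN012337 at 100 nM for 24 h and 1202 ± 144 CPM in RBN012337 at 3 nM for 24 h and that gap is smaller than the SD of the first of these groups. HIST1H1E, the second gene, ranged from 115 to 368 CPM over the libraries of NCI-H1373 and from 103 to 412 CPM over those of NCI-H647.

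Several genes are near copies of others, so their counts are uncertain. Each sequence word of 31 bases was checked for whether any other GENCODE 29 gene holds it. None of the words of HIST2H2AA3 and 2.81% of those of HIST2H2AA4 were unique, and HIST2H4B had 2.79% and HIST2H4A 1.44%. HIST2H2AA3 had over 1 CPM in 3 libraries and HIST2H2AA4, the other copy, in every library, so the split of reads between the copies is that of the counting method. HIST1H3J shares transcript sequence with HIST1H2AM, and in the third NCI-H1373 library of RBN012337 at 100 nM for 6 h HIST1H3J stood at 135 CPM while HIST1H2AM was at 0. HIST1H3D and HIST1H2AD lie inside AL031777.3, which had 633 counts in NCI-H1373 and 987 in NCI-H647. At the protein level the copies are alike too: 14 of the H4 genes encode the same protein.

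The lines were compared in DMSO, at each time, in a fit over all 84 libraries that tested 39 of the 70 genes. At 6 h, 4 were higher in NCI-H647 and 8 lower, where 17.8% of all genes tested were higher and 15.6% lower, so as a count the members were near the background. The lower genes included HIST1H1A, a linker histone gene, at a log2 difference of -2.83 ± 0.42, HIST2H2AC (an H2A gene) at -2.21 ± 0.58 and HIST2H4B at -1.27 ± 0.36. HIST1H2AC, another H2A gene, was higher by 1.91 ± 0.38. At 24 h, 4 were higher and 1 lower, against 15.1% higher and 13.9% lower of all genes tested. HIST1H2BG, an H2B gene, was higher by 3.48 ± 0.65 and HIST1H3E, an H3 gene, by 2.72 ± 0.76, and HIST1H1A was lower at -1.48 ± 0.42. These 5 calls became 8 without the third NCI-H1373 or the second NCI-H647 DMSO library.

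HIST1H1A shows what these differences look like in single libraries. In DMSO at 6 h it stood at 228, 194 and 263 CPM in NCI-H1373 and at 28.5, 38.9 and 35.8 CPM in NCI-H647. The 2 sets of 3 libraries lie far apart. At 24 h it stood at 50.1, 46.8 and 132 CPM in NCI-H1373 and at 42.9, 16.9 and 18.04 CPM in NCI-H647, and there the lowest libraries of the first line lie close to the highest of the second. The call at 24 h was lost without the second NCI-H647 DMSO library and without the third of NCI-H1373, and its log2 difference ran from -2.13 to -0.76 over the libraries left out in turn.

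HIST1H2BH, an H2B gene, and HIST1H3C, an H3 gene, had 0 counts in all 42 libraries of NCI-H1373. In NCI-H647 they had 1288 and 876 counts. Against a floor of 3 counts over the NCI-H1373 DMSO group, HIST1H2BH was at least 21.6-fold higher in NCI-H647 at 6 h and at least 13.3-fold higher at 24 h. HIST1H3C was at least 25.5-fold and at least 15.4-fold higher. Both calls held in the fit at both times, apart from HIST1H3C at 24 h without the first NCI-H647 DMSO library.

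The genes near 0 in NCI-H1373 are neighbours, a pattern noticed after the values were seen. HIST1H4F, HIST1H4G, HIST1H3F, HIST1H2BH, HIST1H3G and HIST1H2BI are 6 consecutive members of the HIST1 cluster, within 32931 bases at chr6:26240426-26273356 (hg38), and together had 1 count in the 42 libraries of NCI-H1373. The same 6 genes had 1663 counts in NCI-H647, with 10 to 92 in each library, which is at least 425-fold higher in CPM. This bound is for the sum, and not for each gene. HIST1H2BH carried 1288 of the counts in NCI-H647, HIST1H3G 200, HIST1H3F 93, HIST1H4F 71 and HIST1H2BI 11, and HIST1H4G was at 0 in both lines. The next members on either side were present in both lines. HIST1H1D had 8058 counts in NCI-H1373 and 20050 in NCI-H647, and HIST1H4H had 309 and 759.

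Smaller runs showed the same direction. HIST1H2BB and HIST1H3C, which are neighbours at chr6:26043277-26045821, had 0 counts in NCI-H1373 and 912 in NCI-H647, at least 233-fold higher in CPM. HIST1H3I and HIST1H4L, at chr6:27871905-27873510, had 1 count and 130 counts, at least 33.2-fold higher in CPM. In the other direction HIST1H2AA and HIST1H2BA had 1 count in NCI-H647 and 15 in NCI-H1373.

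With time in DMSO, the 6 members called in NCI-H1373 moved in opposite directions with and without a stem-loop in their model. From 6 to 24 h, 3 members rose and 3 fell, where 3.66% of all genes tested rose and 5.46% fell. HIST1H2AC rose by 2.02 ± 0.39 on the log2 scale, HIST1H2BD by 1.26 ± 0.29 and HIST3H2A by 1.65 ± 0.49, and all 3 have a stem-loop in their model. HIST1H1A fell by 1.84, HIST1H2AJ by 1.76 and HIST1H1E by 1.02, and none of these has one in its model. The models of HIST1H1A and HIST1H2AJ are coding sequence only and cannot hold one. Over all members tested, 9 of 9 genes with coding sequence only had a negative log2 change (median -1.41). Of 15 with a stem-loop, 8 had a positive change and 7 a negative one (median 0.25).

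In HIST1H2AC this was a change from 5.61, 9.27 and 3.61 CPM at 6 h to 44.0, 27.7 and 19.0 CPM at 24 h. The 3 libraries at 24 h all lie above the 3 at 6 h. Over the same interval 17 of 32 DNA replication genes fell and none rose, led by CDC6, which loads the replicative helicase, at -2.12 ± 0.33. The part of that change in the histone values was not tested. The DMSO libraries at 24 h also enter the comparison with treatment below, so these are not independent. The number of members called was 2, 3 and 10 without the first, the second and the third DMSO library at 24 h. HIST1H2AC and HIST1H1A kept their calls in all 6 fits that left out 1 DMSO library. HIST1H2BD kept its call in 5 of them, HIST1H2AJ in 3, and HIST3H2A and HIST1H1E in 2 each.

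In NCI-H647 the same interval gave 1 call, HIST1H4H, an H4 gene, which rose by 2.20 ± 0.44, where 0.0744% of all genes tested rose and 0.21% fell. It stood at 3.60, 1.11 and 2.91 CPM at 6 h and at 3.85, 22.8 and 15.9 CPM at 24 h. The first DMSO library at 24 h was near the level at 6 h and the other two were well above it. The count was 9 without the first DMSO library at 24 h, 0 without the second or the third, and 0 without the third at 6 h, and HIST1H4H kept its call in 2 of 6 such fits. Of 11 members with coding sequence only, 5 had a positive change in NCI-H647 and 6 a negative one (median -0.005). With a stem-loop, 14 of 19 had a positive change (median 0.53).

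The main comparison set the mean of the 6 treatments (18 libraries) against the 3 DMSO libraries of the same line and time. At 24 h in NCI-H647 it gave 10 lower members and 0 higher among 36 tested, where 2.72% of all genes tested were lower and 2.26% higher. At 24 h in NCI-H1373 it gave 4 lower and 0 higher among 29 tested, against 6.02% lower and 6.13% higher of all genes. The members' medians were -0.07 in NCI-H647 and -0.21 in NCI-H1373, beside -0.02 and -0.01 for all genes tested. A positive change was seen in 14 of 36 members in NCI-H647 and in 10 of 29 in NCI-H1373. The calls came from a subset of the genes, and a smaller shift of the members as a group was not tested.

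That subset was mostly genes with a stem-loop in their model. In NCI-H647 they were 8 of 19 with a stem-loop, 2 of 6 with other non-coding sequence and 0 of 11 with coding sequence only. In NCI-H1373 they were 4 of 15, 0 of 5 and 0 of 9. No test of the difference between these classes was made. The classes sort gene models, and a model of coding sequence only cannot hold a stem-loop even where the transcript does. All 4 genes lower in NCI-H1373, which are HIST1H2AC, HIST1H2BC, HIST2H2AA4 and HIST2H4B, were among the 10 lower in NCI-H647. Of all genes tested, 772 were lower in NCI-H1373 and 402 in NCI-H647, and their overlap was not counted. The overlap of the members therefore has no background beside it.

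**Figure D2:**
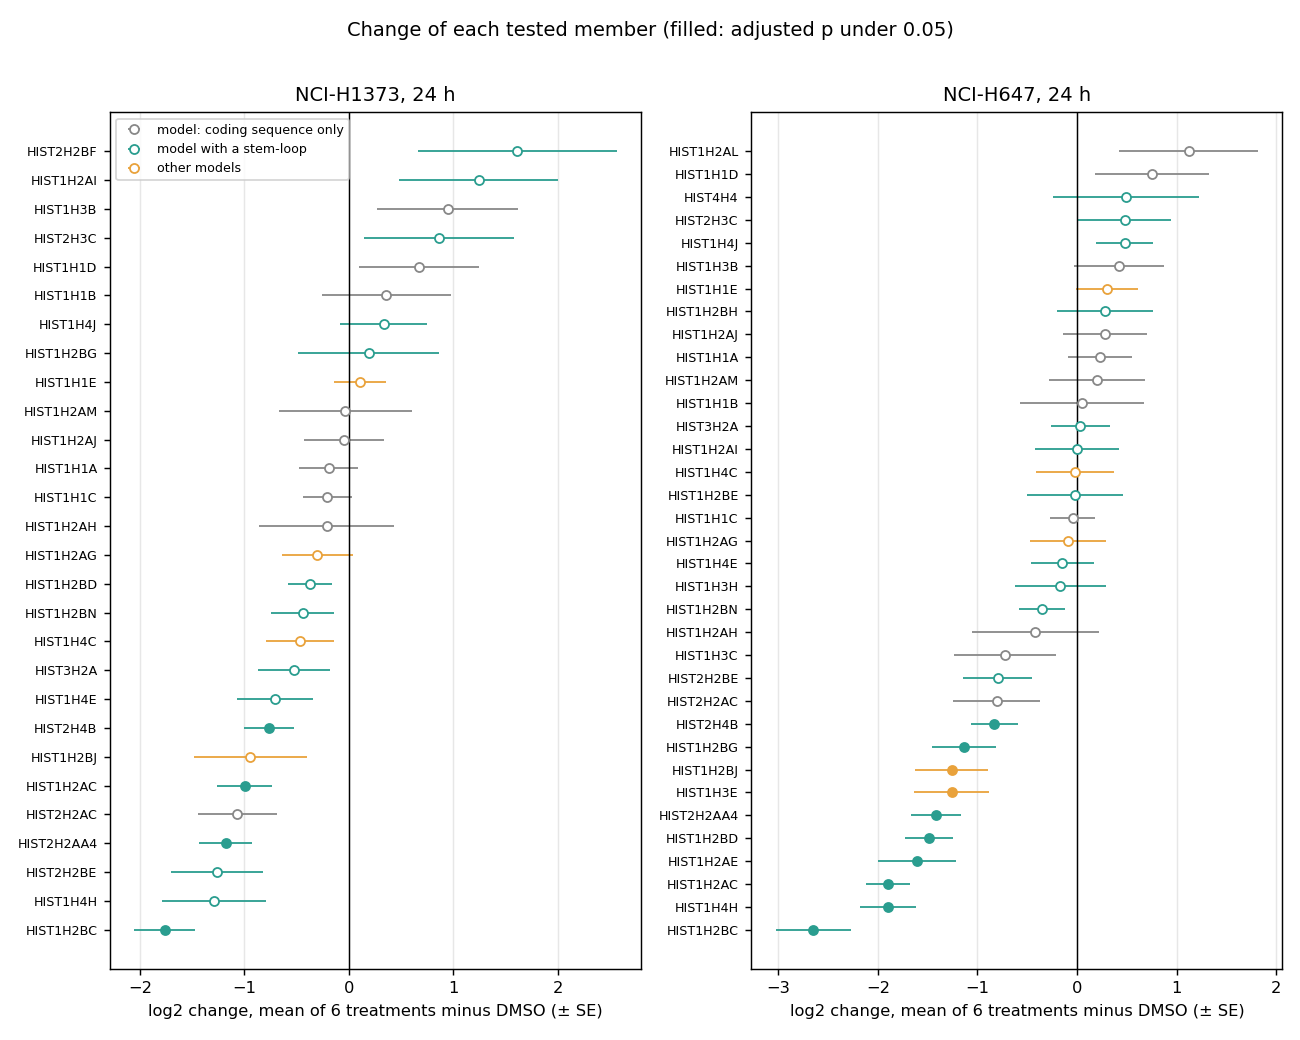
Log2 change (mean of 6 treatments minus DMSO, ± SE) of each member tested at 24 h in NCI-H1373 (left) and NCI-H647 (right), filled where the adjusted p is under 0.05 and coloured by gene model. HIST1H3J is left out of both panels because it had 0 counts in the NCI-H647 DMSO libraries at 24 h. Its change in NCI-H1373 was 0.22 and was not called. HIST1H2BC is lowest in both lines, and no filled point is a gene of coding sequence only.

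HIST1H2AC, an H2A gene, stood at 24.9, 73.8 and 67.4 CPM in the NCI-H647 DMSO libraries at 24 h. Over the 18 treated libraries it ran from 10.3 to 49.3 CPM with a median of 13.5. The treated libraries lie below all 3 DMSO libraries except for the second of RBN012337 at 100 nM, which is the one at 49.3. The change was -1.90 ± 0.22 on the log2 scale, with an adjusted p of 1.11e-06. In NCI-H1373 the DMSO libraries stood at 44.0, 27.7 and 19.0 CPM and the treated ones between 7.58 and 30.9 with a median of 14.5, and 16 of the 18 lie below all DMSO libraries. That change was -0.999 ± 0.26, with an adjusted p of 0.0105.

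HIST1H2BC, an H2B gene, lies head to head with HIST1H2AC. It stood at 8.88, 47.5 and 32.4 CPM in the NCI-H647 DMSO libraries and ran from 2.09 to 34.5 CPM over the treated ones, with a median of 3.64. Again the second library of RBN012337 at 100 nM was the highest treated one, and the other 17 lie below all DMSO libraries. The change was -2.65 ± 0.38, the largest called one in that line. In NCI-H1373 the DMSO libraries held 54.6, 22.8 and 14.3 CPM and the treated ones 3.18 to 25.1 with a median of 7.94, a change of -1.76 ± 0.29.

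HIST1H4H, an H4 gene, stood at 3.85, 22.8 and 15.9 CPM in DMSO and ran from 1.67 to 10.6 CPM in treated NCI-H647 libraries, a change of -1.90 ± 0.28. HIST1H2BD, an H2B gene, stood at 12.7, 50.8 and 31.8 CPM and from 7.60 to 31.9, a change of -1.48 ± 0.24. In each of these genes the first DMSO library was close to the treated libraries, and the groups overlap. In NCI-H1373 the changes of both had the same sign and did not pass the test: HIST1H4H was at -1.29 and HIST1H2BD at -0.37.

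HIST2H2AA4, an H2A gene of the HIST2 cluster, stood at 58.9, 197 and 138 CPM in DMSO and from 27.4 to 179 CPM in treated NCI-H647 libraries, a change of -1.42 ± 0.25. In NCI-H1373 it was at 259, 298 and 76.1 CPM in DMSO and between 56.6 and 183 CPM in treated libraries, a change of -1.18 ± 0.25. The third DMSO library lies among the treated ones. With the counts of its copy HIST2H2AA3 added, the changes were -1.80 and -1.58.

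HIST1H2AE fell by 1.61 on the log2 scale in NCI-H647, and its DMSO libraries were at 0.888, 13.2 and 3.71 CPM. The call rests on the second of these, the highest: without it the change was -0.26, with an adjusted p of 0.883 by edgeR. The 4 further genes called there, outside the rule for named genes and given because they complete the count, were HIST1H2BG (-1.13 ± 0.32), HIST2H4B (-0.83 ± 0.24), HIST1H2BJ (-1.26 ± 0.37) and HIST1H3E (-1.26 ± 0.38). HIST2H4B was also lower in NCI-H1373, by -0.76 ± 0.24. The calls of HIST1H2BJ, HIST1H3E and HIST2H4B in NCI-H647 were kept in 12, 6 and 11 of the 21 fits that left out 1 library.

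**Figure D3:**
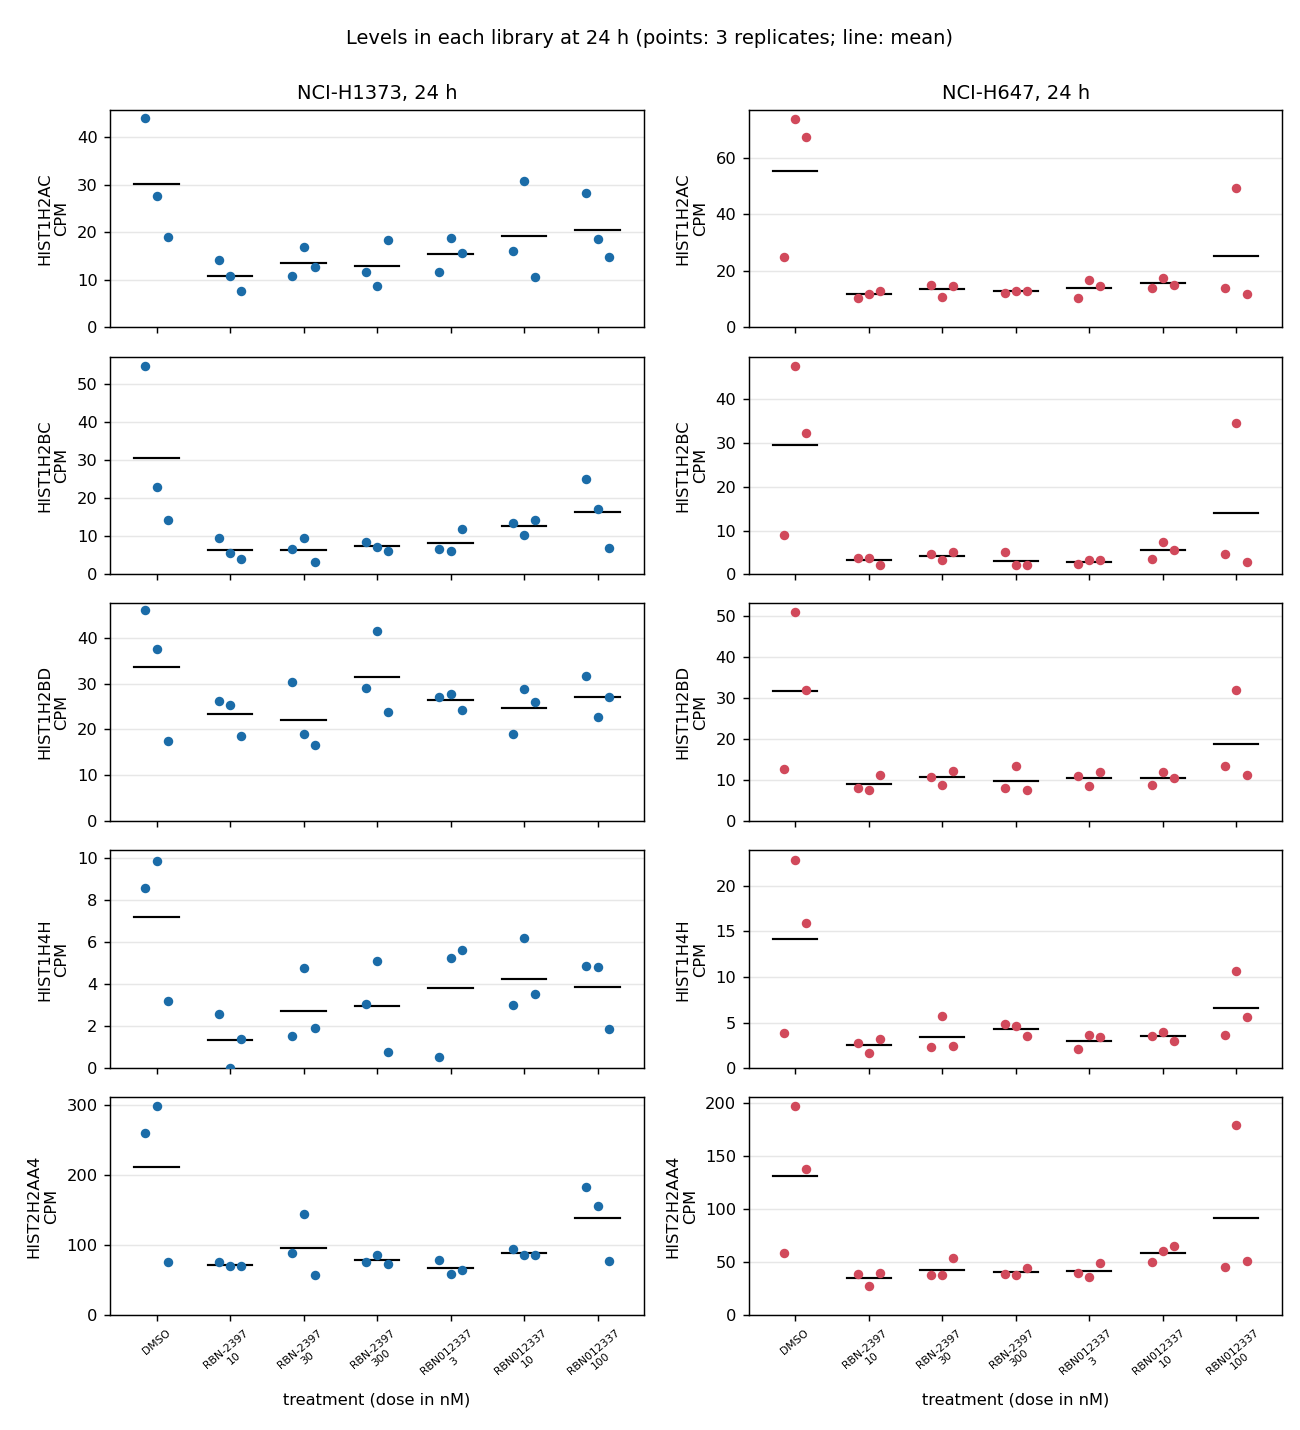
CPM of HIST1H2AC, HIST1H2BC, HIST1H2BD, HIST1H4H and HIST2H2AA4 in each library at 24 h, with NCI-H1373 at left and NCI-H647 at right; points are the 3 replicates of a treatment in order and the line is their mean. In NCI-H647 the first DMSO library is the lowest DMSO library for all 5 genes, and 1 library of RBN012337 at 100 nM is the highest treated one, at 49.3 CPM for HIST1H2AC.

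Leaving out 1 DMSO library changed many of these calls. Without the second NCI-H647 DMSO library 3 members stayed lower, HIST1H2AC, HIST1H2BC and HIST1H4H, and HIST1H2BG turned to a change of 0.10. Without the first NCI-H1373 DMSO library, which is also the deepest of the 3, none stayed called by edgeR, and HIST1H2AC was at -0.61 and HIST2H4B at -0.46. Over all libraries left out in turn the count ran from 3 to 14 in NCI-H647 and from 0 to 5 in NCI-H1373. In every such fit HIST1H2AC, HIST1H2BC and HIST1H4H stayed called in NCI-H647.

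The same libraries stood apart in the DNA replication genes. The mean log2(CPM + 1) over 32 such genes was 4.37, 4.38 and 5.28 in the NCI-H1373 DMSO libraries at 24 h and 4.66, 4.34 and 5.47 in RBN012337 at 100 nM, while the other 15 treated libraries lay between 5.14 and 5.68. In NCI-H647 it was 5.68, 4.30 and 4.59 in DMSO, 5.73, 4.05 and 5.65 in RBN012337 at 100 nM, and between 5.48 and 5.85 in the other 15. The low scores were those of DMSO replicates 1 and 2 and RBN012337 100 nM replicates 1 and 2 in NCI-H1373, and of DMSO replicates 2 and 3 and RBN012337 100 nM replicate 2 in NCI-H647. Each of these libraries held more HIST1H2BC and more HIST2H2AA4 than every other library of its line at 24 h. The part of this difference in the histone results was not tested.

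HIST1H4C was low in most of the same libraries. It stood at 1853, 280 and 889 CPM in the NCI-H647 DMSO libraries at 24 h and from 257 to 1588 CPM in the treated ones, and the lowest treated library is the second of RBN012337 at 100 nM. In NCI-H1373 it stood at 709, 499 and 2900 CPM in DMSO and from 514 to 1698 CPM in treated libraries, and the 4 libraries with low scores held less of it than all others. In NCI-H647 the third DMSO library, also low in the score, was within the range of the others. Its pooled change did not pass the test in either line, at -0.02 ± 0.39 in NCI-H647 and -0.47 ± 0.33 in NCI-H1373.

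**Figure D4:**
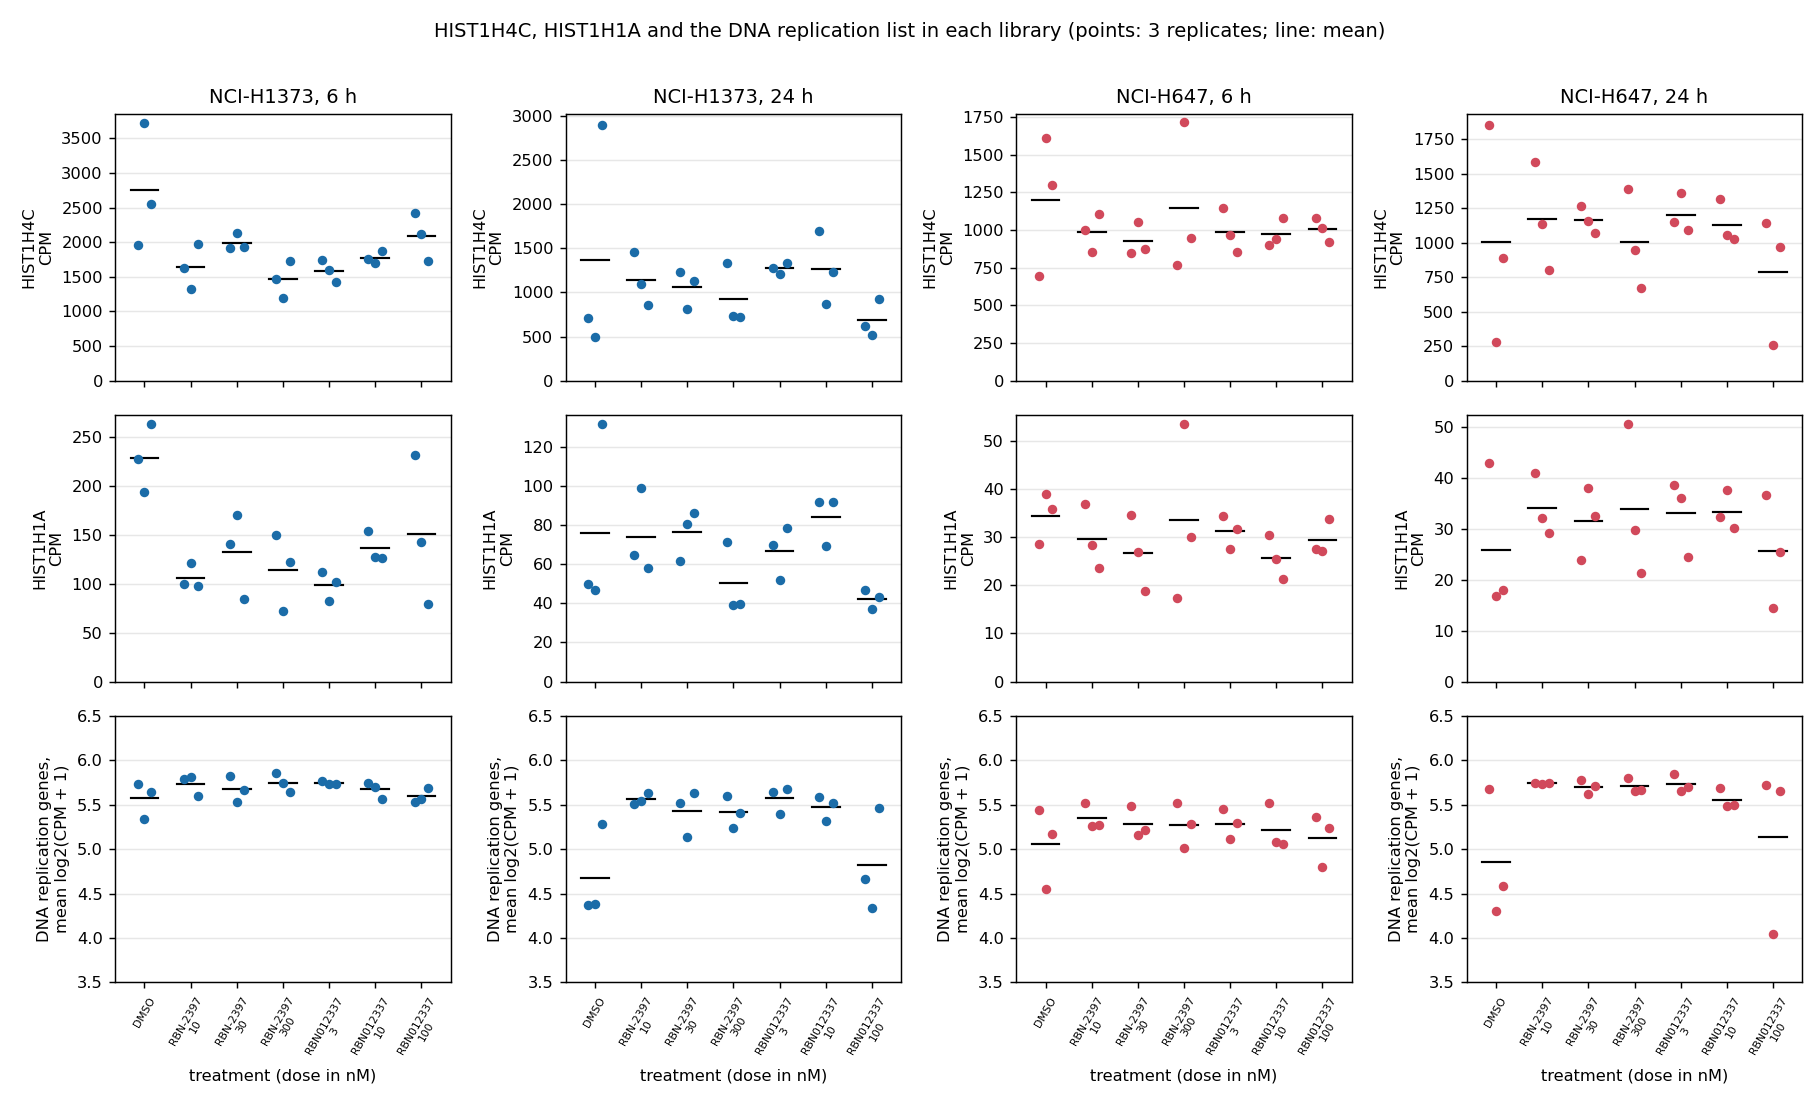
HIST1H4C and HIST1H1A in CPM, and the mean log2(CPM + 1) of 32 DNA replication genes, in each library (points: 3 replicates; line: mean), in columns by line and time. At 24 h the DMSO libraries spread over most of the range, from 499 to 2900 CPM for HIST1H4C in NCI-H1373, and the bottom row starts at 3.5, not at 0.

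At 6 h the pooled comparison gave few calls. In NCI-H1373, 2 members were lower and 0 higher, where 0.592% of all genes tested were lower and 0.569% higher. The members leaned down as a group: 27 of 29 had a negative change, and their median was -0.57 against 0.01 for all genes. The 2 called were HIST2H4B at -1.08 ± 0.24 (adjusted p of 0.0238) and HIST1H1A at -1.02 ± 0.25 (adjusted p of 0.0323). HIST1H1A stood at 228, 194 and 263 CPM in DMSO and from 72.0 to 232 CPM in treated libraries, with a median of 121, and 17 of the 18 treated libraries lie below all DMSO libraries. HIST2H4B stood at 12.9, 14.5 and 18.6 CPM in DMSO and from 1.97 to 14.1 CPM in treated ones.

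The changes ran from -1.10 to -0.97 in HIST1H1A and from -1.23 to -1.004 in HIST2H4B over the 21 fits that left out 1 library. Both calls were lost without the second or the third NCI-H1373 DMSO library, that of HIST1H1A also without the first, and the count rose to 4 without the second library of RBN-2397 at 30 nM. The replication score in NCI-H1373 at 6 h was 5.73, 5.35 and 5.65 in DMSO and 5.53 to 5.86 in treated libraries, with a treated median of 5.72. Of the 18 treated libraries, 9 lay above the highest DMSO library and 0 below the lowest. The part of the score in the histone values at 6 h was not tested. In NCI-H647 at 6 h no member was called by edgeR or by DESeq2, with 5 of 36 members at an unadjusted p under 0.05, and of all genes tested 0.00676% were lower and 0.00676% higher. Without the first DMSO library there 2 were called. HIST1H2AC, 1 of the 36 members tested, stood there at 25.8, 26.7 and 26.0 CPM in DMSO and from 8.91 to 23.7 CPM in treated libraries. Its change of -0.74 ± 0.24 did not pass the test, with an adjusted p of 0.320 by edgeR.

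Single doses were set against the same DMSO libraries, so their results are not independent of each other. Every call of a member was lower. In NCI-H647 at 24 h, 24 of 216 tests of a member at a dose were called, where 0.412% of all tests of a gene at a dose were called lower. In NCI-H1373 at 24 h, 9 of 174 were called, against 2.16%. At 6 h, 1 of 174 was called in NCI-H1373, HIST2H4B in RBN-2397 at 300 nM, against 0.14%, and 0 of 216 in NCI-H647 by edgeR, against 0%, also by DESeq2.

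These counts moved with single DMSO libraries. At 24 h the 24 calls in NCI-H647 became 52, 5 and 10 without the first, the second and the third DMSO library, and the 9 in NCI-H1373 became 0 without the first and 19 without the third. At 6 h the 1 call in NCI-H1373 became 3 without the first DMSO library and 0 without the second, or without the first or second library of RBN-2397 at 300 nM. In NCI-H647 the 0 became 1 without the first.

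HIST1H2AC in NCI-H647 at 24 h was at -2.25, -1.99 and -2.10 on the log2 scale for the 3 rising doses of RBN-2397, and at -2.02, -1.82 and -1.21 in RBN012337 at 3, 10 and 100 nM, each with an SE of 0.32 to 0.34. The first 5 of these passed the test and the last did not. HIST1H2BC there was at -3.16, -2.70 and -3.20 in RBN-2397 and at -3.34, -2.37 and -1.13 in RBN012337, and 10 and 100 nM of the latter did not pass. In NCI-H1373 HIST1H2BC was at -2.15, -2.27 and -2.01 in RBN-2397 and at -1.93, -1.26 and -0.96 in RBN012337, with the same doses not passing. No member was called at RBN012337 100 nM in either line or at either time. Whether that dose differs from the others was not tested, and at 24 h 2 of its 3 libraries in NCI-H1373 and 1 of 3 in NCI-H647 had the low replication scores given above.

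The compounds share 1 dose, 10 nM, at which they were compared in each line and time. No member differed in any of the 4 comparisons by edgeR, and none by DESeq2, with 1 member at an unadjusted p under 0.05 in each. Of all genes tested 0% were called. At 24 h the difference RBN-2397 minus RBN012337 had a median over the members tested of -0.27 in NCI-H1373 and 0.03 in NCI-H647. For HIST1H2AC at 24 h the difference was -0.81 in NCI-H1373, with a 95% interval (1.96 SE either side) from -1.56 to -0.07 and an adjusted p of 1, and -0.44 in NCI-H647, from -1.11 to 0.23. For HIST1H2BC it was -0.90, from -1.80 to 0.01, and -0.79, from -2.08 to 0.50. These intervals are wide, and a missed threshold does not show that the compounds act alike.

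Differences of the responses were tested as such. The pooled response at 24 h minus that at 6 h gave no called member in NCI-H1373, with 1 member at an unadjusted p under 0.05 and 0.53% of all genes called. It gave none in NCI-H647, with 7 members at an unadjusted p under 0.05 and 0% of all genes called. HIST1H4H had the lowest adjusted p there, 0.0728, at a difference of -2.36 ± 0.48. Without the first NCI-H647 DMSO library at 24 h 4 members were called, without RBN012337 100 nM replicate 2 and RBN-2397 30 nM replicate 2 at 24 h 2 and 1. In NCI-H1373 2 were called without the third DMSO library at 24 h. The pooled response of NCI-H647 minus that of NCI-H1373 gave no called member at 6 h, where 0% of all genes were called, and none at 24 h, where 0.47% were called, with 2 members at an unadjusted p under 0.05 at each time. DESeq2 also called none in these 4 comparisons, and 1 was called between lines at 24 h without the first NCI-H647 DMSO library. HIST1H2BD had the lowest adjusted p between lines at 24 h, 0.167, at a difference of -1.09 ± 0.35. The larger number of lower members in NCI-H647 at 24 h was therefore not matched by a called difference between the lines.

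Many of these genes sit in pairs that share a stretch of promoter. There are 12 pairs of members, with 23 genes, that start within 219 to 357 bases of each other on opposite strands, all of them an H2A and an H2B gene except HIST1H3J with HIST1H2BO. HIST1H2BC and HIST1H2AC, 219 bases apart, are the closest pair, and both were lower at 24 h in both lines. HIST1H2BG and HIST1H2AE were both lower in NCI-H647. In the pair HIST1H2BJ and HIST1H2AG the first was lower at -1.26 in NCI-H647 and the second was at -0.09. HIST2H2BE and HIST2H2AC did not pass the test in either line, at -1.26 and -1.07 in NCI-H1373.

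The promoters of 3 genes that fell are shown because 1 of them is shared by a pair and the motifs differ between families. They are the 200 bases before the start site in RefSeq on GRCh38.p14, on the gene's strand. Capitals mark the octamer ATTTGCAT, the CCAAT box and TATAAA, on either strand, with no overlap among the matches shown.
HIST1H2AC, chr6:26123972-26124171, plus strand: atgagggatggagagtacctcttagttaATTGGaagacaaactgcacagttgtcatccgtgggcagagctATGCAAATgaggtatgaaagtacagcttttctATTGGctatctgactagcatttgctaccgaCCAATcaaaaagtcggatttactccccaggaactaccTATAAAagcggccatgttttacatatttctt
HIST1H2BD, chr6:26157921-26158120, plus strand: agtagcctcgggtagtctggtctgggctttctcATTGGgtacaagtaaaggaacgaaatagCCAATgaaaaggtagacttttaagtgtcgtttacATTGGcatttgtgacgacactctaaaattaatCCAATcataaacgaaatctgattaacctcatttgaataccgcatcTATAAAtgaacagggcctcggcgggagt
HIST1H4H, chr6:26285535-26285734, minus strand: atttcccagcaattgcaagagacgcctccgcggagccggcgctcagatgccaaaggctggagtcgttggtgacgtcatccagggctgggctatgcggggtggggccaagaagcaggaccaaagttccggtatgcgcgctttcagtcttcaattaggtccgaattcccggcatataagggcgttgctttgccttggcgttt

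The HIST1H2AC window holds the octamer 130 to 123 bases before the start, on the minus strand, and TATAAA 31 to 26 bases before it. The HIST1H2BD window has 4 CCAAT matches and TATAAA, and that of HIST1H4H has none of the 3 motifs. Promoters of 65 members were found in RefSeq, and 250 bases were searched in each. The octamer was in 40% of them against 2.03% of all 27305 promoters, CCAAT in 84.6% against 37.0%, and TATAAA in 67.7% against 13.0%. The octamer was found in 11 of 16 H2A and 14 of 18 H2B promoters, in 1 of 12 H3 promoters, and in none of the 6 H1 or 13 H4 promoters. CCAAT was in every H1, H2A, H2B and H3 promoter searched and in 3 of 13 of H4. A match is a description of letters, not a bound site.

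Genes that act on histones or beside them were followed as lists: histone transcription and 3' processing, chaperones, histones outside the clusters, DNA replication and mitosis. The values below are pooled changes against DMSO. Of 25 tested genes of histone expression and processing, 1 was higher and 3 lower in NCI-H1373 at 24 h, and 2 higher and 3 lower in NCI-H647. Of all genes tested, 6.13% were higher and 6.02% lower in NCI-H1373 and 2.26% and 2.72% in NCI-H647, so the counts in NCI-H1373 are near the background. TUT7, which adds uridines to histone transcripts in their decay, was lower in both lines, at -0.85 ± 0.22 and -0.95 ± 0.22. CPSF3, the endonuclease that cuts histone and other transcripts, was higher in both, at 0.56 ± 0.18 and 0.68 ± 0.20. CCNE1, the cyclin of entry into DNA replication, was higher in NCI-H647, at 0.88 ± 0.25. At 6 h in NCI-H1373 the related cyclin CCNE2 was the 1 gene of this list called, lower at -1.58 ± 0.35. There 0.592% of all genes tested were lower.

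Of 32 DNA replication genes, 10 were higher and 0 lower in NCI-H1373 at 24 h, with MCM2, a subunit of the replicative helicase, at 1.93 ± 0.36 and TYMS, which makes thymidylate, at 1.37 ± 0.28. In NCI-H647, 3 were higher and 0 lower: MCM4 at 0.92 ± 0.24, MCM5 at 0.93 ± 0.27 and DUT at 0.80 ± 0.23. Of all genes tested at 24 h, 6.13% were higher and 6.02% lower in NCI-H1373, and 2.26% and 2.72% in NCI-H647. The lists' medians were 0.65 and 0.55, beside -0.01 and -0.02 for all genes tested. At 6 h in NCI-H1373, GMNN, an inhibitor of replication licensing, was the 1 gene of this list called, lower at -0.85 ± 0.20. There 0.592% of all genes tested were lower, and in NCI-H647 no gene of this list was called at 6 h.

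Of the histone chaperones, 2 of 22 tested were higher and 1 lower in NCI-H1373 at 24 h, again near the background of 6.13% and 6.02%. IPO4, which imports H3 and H4, was at 1.27 ± 0.34, and 0 of 23 were called in NCI-H647 by edgeR. At 6 h in NCI-H1373, 2 of 22 were lower and 0 higher, where 0.592% of all genes tested were lower: HJURP, the chaperone of the centromeric H3 variant, at -0.75 ± 0.16 and ASF1A, a chaperone of H3 and H4, at -1.01 ± 0.27. Of 10 tested histone genes outside the clusters, H3F3B, which encodes H3.3, was lower in NCI-H1373 at 24 h, at -0.66 ± 0.16, and at 6 h, at -0.70 ± 0.16. H2AFY, which encodes macroH2A1, was higher at 24 h in both lines, at 0.59 ± 0.16 and 0.65 ± 0.20. Mitosis genes gave 0 higher and 3 lower of 25 in NCI-H1373 at 6 h, against the same 0.592%: NUSAP1, a spindle protein, at -0.92 ± 0.20, TOP2A, a DNA topoisomerase, at -0.74 ± 0.17 and BUB1, a spindle checkpoint kinase, at -0.79 ± 0.19. At 24 h 0 were higher and 2 lower in NCI-H1373, near the background, and none was called in NCI-H647. Of the epithelial markers, 5 of 6 were higher in NCI-H1373 at 24 h and 1 of 5 in NCI-H647, against 6.13% and 2.26% of all genes tested. Of the endothelial ones, PECAM1 was higher in NCI-H647 at 1.65 ± 0.41. Their part in the histone results was not tested.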

How the data were processed

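The authors deposited 1 table of estimated counts per gene (expected counts, not normalized), made with Salmon 0.11.27 on hg38 per the submitters' processing notes. For annotation, strand and molecular identifiers the handling is not given in the labels or headers. Columns were matched to samples by title. Estimated counts were rounded, and CPM scales a count to a library total of 1e6. Each line was fitted with edgeR 4.0.16 over its 42 libraries, and the lines were compared in a fit over 84. Genes were kept by filterByExpr, scaled by TMM and tested by the robust quasi-likelihood test with Benjamini-Hochberg adjustment over all genes tested, at a threshold of 0.05; every adjusted p is from this test. This left 12832 genes in NCI-H1373 (29 members), 14789 in NCI-H647 (36) and 16177 in the joint fit (39). Errors beside log2 changes are standard errors. The labels speak of triplicate experiments and give no separate cultures, so a p-value reflects spread among these samples, which may be technical. DESeq2 1.42.0 was an alternative. The scripts were tested on simulated data.

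The members and lists were chosen with earlier results of these data known. Named members are the 8 with the highest mean CPM and up to 6 called members per comparison by adjusted p, and up to 4 called genes of a list. Floors of 3 counts cover counting error only. Intervals come from the standard errors of the fit and reflect spread among these samples. In these bulk samples fewer cells of a type and less RNA per cell cannot be told apart.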

Additional observations from a re-analysis of the deposited data

How the results depend on the processing

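The counts of called members were recomputed under other settings. With no filter on low counts they were 14 for time in NCI-H1373 and 5 in NCI-H647, 11 for the lines at 24 h, 1 for the compounds at 10 nM and 1 for the response at 24 h minus 6 h in NCI-H647. The pooled comparisons then gave 7 in NCI-H1373 at 24 h, 7 at 6 h and 5 in NCI-H647 at 6 h, and single doses 29, 22, 51 and 5 (NCI-H1373 at 24 and 6 h, NCI-H647 at 24 and 6 h). DESeq2 gave 2 for time in NCI-H647, and for NCI-H1373 at 6 h 4 pooled and 7 single-dose calls. With libraries of the line and time only, NCI-H1373 at 6 h had 1 pooled call and 0 at single doses, and NCI-H647 at 24 h 10 at single doses. A pool of 5 treatments without RBN012337 at 100 nM, chosen after seeing the data, gave 4 in NCI-H1373 at 6 h. The causes were not tested.

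The fit with a replicate block gave 13 calls for time in NCI-H1373, 0 in NCI-H647, 11 for the lines at 24 h, 1 for the response at 24 h minus 6 h in NCI-H647, 4 pooled calls in NCI-H1373 at 6 h and, at single doses, 17 and 12 in NCI-H1373 at 24 and 6 h. Same-numbered libraries correlated at as little as 0.04, 0.01, -0.11 and -0.10 (NCI-H1373 at 6 and 24 h, NCI-H647 at 6 and 24 h), and 60, 58, 51 and 47 of 63 pairs were over 0.1, with means of 0.38, 0.30, 0.21 and 0.21. Since not every pair was over 0.1 and the labels name no shared culture or day, the numbers were not taken to pair the samples. With their own number 20, 19, 19 and 19 of 21 libraries correlated best, so same-numbered libraries share variation in the data, though no label pairs them. The main tests do not account for it. HIST1H4H over time in NCI-H647 was at 1.81 under the block and lost its call.

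Leaving out 1 library moved the counts to 2 to 10 (time, NCI-H1373), 0 to 9 (time, NCI-H647), 5 to 8 and 8 to 12 (lines at 24 and 6 h), 0 to 2 and 0 to 4 (24 h minus 6 h, NCI-H1373 and NCI-H647), 0 to 1 (response between lines, 24 h), 0 to 5 and 0 to 4 (pooled, NCI-H1373 at 24 and 6 h), 3 to 14 and 0 to 2 (pooled, NCI-H647 at 24 and 6 h), 0 to 19 and 0 to 3 (single doses, NCI-H1373 at 24 and 6 h) and 5 to 52 and 0 to 1 (single doses, NCI-H647 at 24 and 6 h). The compounds at 10 nM stayed at 0. Of the named results under these and the other settings, 497 values kept their side of the threshold, 37 lost it and 0 reversed. Leaving out treated libraries was not run for the responses between lines. Where a gene has a few CPM, 1 count in a shallow library is a large step, so depth limits the low members most.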
